A study of Rattus norvegicus with 22 samples.

Results

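Fgl2, which encodes fibrinogen-like protein 2, was followed across the cortex of 11 rats, 6 with penetrating ballistic brain injury (PBBI) and 5 with sham surgery. It is 1 gene of the 32545 Ensembl gene identifiers in the count table (ENSRNOG00000012881), and its symbol came from a list of names supplied with the study. The gene was selected on these samples, by its difference between PBBI and sham rats in the injured hemisphere, where it ranked 1 of 16104 genes by the p of the edgeR quasi-likelihood test. The values of that comparison, and of the others that share its samples, are therefore given as a description and without a test. The contralateral samples played no part in the choice, and they are where Fgl2 was tested. They come from the same rats, and over all genes both samples of a rat tended to deviate from their group means together. That test is therefore not fully independent of the choice.

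Fgl2 protein, also called fibroleukin, belongs to the family of proteins that carry a fibrinogen-like domain. Its membrane form is a prothrombinase, an enzyme that cleaves prothrombin to thrombin without the usual coagulation cascade, and it is known from macrophages and endothelial cells. Its soluble form is secreted by T cells, regulatory T cells among them, binds the inhibitory Fc receptor encoded by Fcgr2b and the receptor encoded by Fcgr3a, and restrains immune responses. Interferon-gamma is a known inducer of the gene in macrophages.

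All animals were adult male Sprague-Dawley rats (spelled Sprague-Daley in the labels). All carried electrodes for EEG and EMG recording, implanted days before the procedure. PBBI rats received a right frontal injury in which a probe was pushed into the brain and a balloon at its tip was briefly inflated, which leaves a cavity. Sham rats had the same surgery without insertion of the probe, so they too had a craniectomy on the right. Cortex was collected 24 h after the procedure from the ipsilateral (right) and the contralateral hemisphere of each rat, 22 samples in all, and RNA depleted of ribosomal RNA was sequenced. Each sample is 1 hemisphere of 1 rat, so rats are the replicates and the 2 samples of a rat are paired. The titles of both samples of PBBI rat 81 and of the contralateral sample of sham rat 82 carry PFC. Those of the other samples carry CC or CI. The titles do not say whether the region sampled differed, and this was not tested.

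Total counts were between 42085341 and 63412426 per sample, and Fgl2 had between 342 and 4931 counts. Levels are given as CPM, counts scaled to a common library size, after TMM, a method that corrects the library size for the makeup of each library. The ipsilateral sample of PBBI rat 85 stood apart, with a score of 201.9 against −73.0 to 74.6 in the other ipsilateral samples on their leading principal component, and a TMM factor of 0.706, the lowest of the 22. Ipsilateral counts of listed genes and markers called are given with and without it where its removal changed them. Most other values include it. Tissue samples hold many cell types, so a greater number of cells that express Fgl2 and more Fgl2 RNA per cell cannot be told apart.

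Fgl2 was at its highest in the injured hemisphere. The 6 ipsilateral PBBI samples had 50.8 CPM (rat 81), 30.5 (rat 83), 59.5 (rat 85), 65.4 (rat 88), 65.4 (rat 90) and 66.7 (rat 96), from 3245, 2075, 2635, 4547, 4565 and 4931 counts. The 5 ipsilateral sham samples had 8.48 CPM (rat 82), 9.16 (rat 84), 9.14 (rat 86), 8.13 (rat 91) and 9.21 (rat 94), from 460, 482, 342, 513 and 560 counts. The groups did not overlap, and the lowest PBBI sample, that of rat 83, was still 3.31-fold above the highest sham sample. The means were 56.4 ± 14.0 CPM (SD, n = 6) in PBBI and 8.83 ± 0.492 CPM (SD, n = 5) in sham, a ratio of 6.39. The fitted log2 fold change was 2.68 with an SE of 0.229. In this comparison 4.09% of the 16104 genes were called higher in PBBI and 0.584% lower at an adjusted p of 0.05 or less in edgeR, and in 3.49% every PBBI sample lay above every sham sample. These shares are the background against which Fgl2 was picked, and nothing is read from them here.

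In the contralateral hemisphere the PBBI samples had 27.5 CPM (rat 81), 15.5 (rat 83), 9.62 (rat 85), 18.8 (rat 88), 12.4 (rat 90) and 13.4 (rat 96), from 1685, 836, 556, 1248, 723 and 769 counts. The contralateral sham samples had 6.41 CPM (rat 82), 10.4 (rat 84), 7.38 (rat 86), 9.51 (rat 91) and 15.7 (rat 94), from 346, 634, 405, 587 and 683 counts. Here the groups overlapped. Only the samples of rats 81 and 88 lay above every sham sample, and 3 sham samples lay below every PBBI sample. The highest PBBI sample (rat 81) and the lowest sham sample (rat 82) are those whose titles carry PFC. The means were 16.2 ± 6.33 CPM (SD, n = 6) and 9.87 ± 3.62 CPM (SD, n = 5), a ratio of 1.64.

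**Figure D1:**
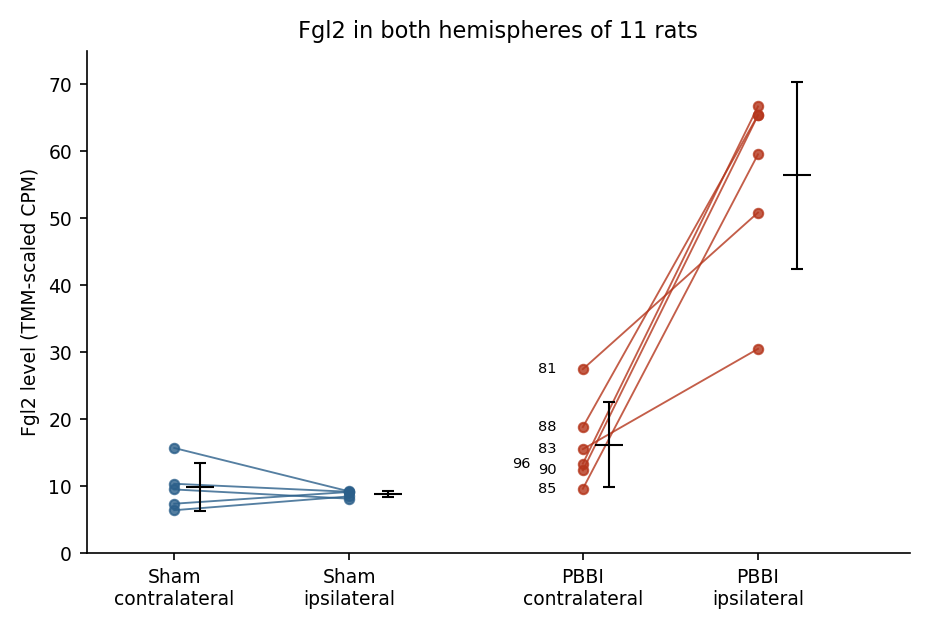
Fgl2 level in TMM-scaled CPM (vertical axis) in the contralateral and ipsilateral cortex of sham (blue, n = 5) and PBBI rats (red, n = 6). Points are samples, lines join the hemispheres of a rat, numbers name the PBBI rats, and black marks give the mean ± SD; the ipsilateral PBBI samples, between 30.5 and 66.7 CPM, lie above every other sample.

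Ordered by mean, the groups ran from ipsilateral sham through contralateral sham and contralateral PBBI to ipsilateral PBBI. The neighbours ipsilateral and contralateral sham differed by a factor of 1.12 with overlapping ranges, and contralateral sham and contralateral PBBI also overlapped. Only the top step, from contralateral to ipsilateral PBBI, a ratio of 3.48, separated groups without overlap. The margin was narrow, since the ipsilateral sample of rat 83 was 1.11-fold above the highest of the 16 other samples, the contralateral sample of PBBI rat 81. Per kilobase of the 3686 bases of gene length in the count table, the mean level was 15.3 CPM in ipsilateral PBBI, 4.39 in contralateral PBBI, 2.68 in contralateral sham and 2.39 in ipsilateral sham. By this length-corrected level, Fgl2 stood between the 59.1th and 77.0th percentile of 16587 genes in the ipsilateral PBBI samples and between the 33.8th and 39.7th in the ipsilateral sham samples. Contralaterally the ranges were 40.3 to 57.7 in PBBI and 32.3 to 48.4 in sham. Fgl2 thus moved from the lower part of the range of cortical genes to the upper part in the injured tissue.

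The groups also differed in how much the rats varied. The 5 ipsilateral sham samples differed by a factor of 1.13 between lowest and highest, with a coefficient of variation of 5.57%, whereas the contralateral samples of the same rats differed by a factor of 2.45, with a coefficient of variation of 36.7%. On the log2 scale the SD was 0.08 ipsilaterally and 0.50 contralaterally in sham. Among the 1830 genes whose mean in the ipsilateral sham samples lay within 0.5 log2 units of that of Fgl2, 0.492% had a smaller SD than Fgl2, and their median SD was 0.44. A small spread in these samples helps a gene to a high rank in the comparison that chose Fgl2, so nothing is read from this share. In the contralateral sham samples, 66.8% of genes of like level had a smaller SD than Fgl2. In PBBI rats the SD was 0.44 ipsilaterally and 0.53 contralaterally. It was smaller for 45.3% and 79.5% of genes of like level. Leaving out rat 83 took the ipsilateral PBBI mean to 61.6 ± 6.60 CPM (SD, n = 5), so much of that group's spread came from 1 rat.

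The contralateral comparison asks whether the injury on the right also changed Fgl2 on the left. The fitted log2 fold change between PBBI and sham was 0.71 with an SE of 0.298, and its p in edgeR was 0.0329 before adjustment. After adjustment over 15907 genes the edgeR p was 1.00, and 0 genes, or 0% of those tested, were called, with 366 at an unadjusted p under 0.05. DESeq2 called 3 genes and limma voom 1 contralaterally, and Fgl2 was among neither. Genes higher in PBBI at an unadjusted p under 0.05, as Fgl2 was, made up 1.28% of those tested. A two-sided exact permutation test of the difference in mean log2 CPM over the 462 splits of the rats gave p = 0.0519, where the smallest p that the design allows is 0.00433. An increase of Fgl2 in the contralateral hemisphere was thus not shown, and the fold change was positive in each of the 18 alternative fits, between 0.42 and 0.95.

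Single rats decided on which side of 0.05 the contralateral test fell. Without sham rat 94, whose 15.7 CPM was the highest sham value, 5 of 6 PBBI samples lay above every sham sample, the fitted log2 fold change was 0.95 and the exact permutation test gave p = 0.0190. Without PBBI rat 85, the lowest PBBI sample, the permutation p was 0.0317. Leaving out any of the other 9 rats gave an exact permutation p between 0.0714 and 0.114, and without PBBI rat 81, the highest sample, the fitted log2 fold change fell to 0.49. In edgeR the unadjusted p stayed under 0.05 in 7 of the 11 fits without 1 rat, and the adjusted p was between 0.260 and 1.00 over all 18 alternatives. The rats that carried the contralateral difference also differed in marker genes. The contralateral samples of rats 81 and 88 had the highest summed levels of macrophage and microglia markers among contralateral PBBI samples, 286 and 310 CPM against 227 to 242 in the other 4, and of T cell markers, 2.35 and 2.31 CPM against 0.769 to 1.36. They also had the highest astrocyte sums, 5450 and 4644 CPM against 1631 to 3513, and the highest oligodendrocyte sums, 851 and 1105 CPM against 281 to 417. Single genes weigh most in both sums. Gfap was between 502 and 4135 CPM in the contralateral PBBI samples. The oligodendrocyte sum holds only Tf, between 208 and 952 CPM there, and Opalin, between 66.0 and 171 CPM. For neutrophils the highest sum, 59.0 CPM, was that of rat 85, the lowest in Fgl2, and rats 81 and 88 had 24.1 and 16.1 CPM. For endothelium the highest was that of rat 83 at 166 CPM. Neuron sums were lowest in rats 81 and 88, 1543 and 1762 CPM against 1772 to 2078. Among the contralateral sham samples, that of rat 94 was highest for macrophages and microglia at 243 CPM, against 146 to 202 in the other 4. It was also highest for neutrophils at 48.1 CPM, against 11.5 to 19.2, for T cells at 1.33 CPM and for astrocytes at 2427 CPM. Its neuron sum was the lowest at 1462 CPM. For endothelium and oligodendrocytes it was neither highest nor lowest. The part of these cell types in the Fgl2 values was not tested.

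**Figure D2:**
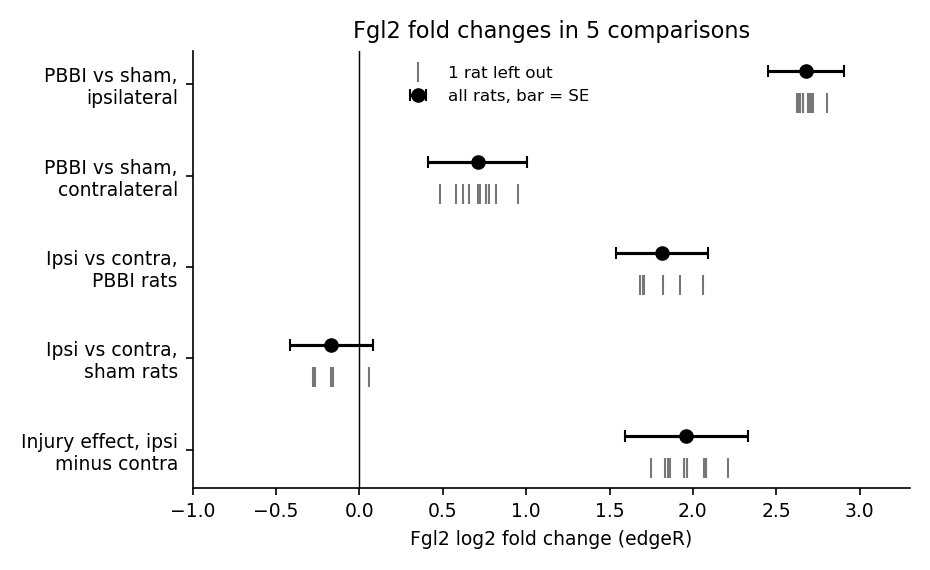
Fitted log2 fold change of Fgl2 (horizontal axis) in 5 comparisons. Black points with bars are the fits of all rats with the SE, and grey ticks are the fits with 1 rat left out; the ipsilateral fits stay between 2.62 and 2.80, the contralateral fits between 0.49 and 0.95, and the fits within sham rats fall on both sides of 0.

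The hemispheres of each rat were then compared directly. In PBBI rats Fgl2 was higher ipsilaterally in 6 of 6 animals, by 0.89 (rat 81), 0.97 (rat 83), 2.63 (rat 85), 1.79 (rat 88), 2.40 (rat 90) and 2.31 (rat 96) on the log2 scale. The mean difference was 1.83 ± 0.75 (SD, n = 6). As ratios of CPM these were between 1.85 and 6.19, with a median of 4.23. Rats 81 and 83 had ratios near 2 and the other 4 had ratios above 3. Rat 81 had the highest contralateral level of the group and an ipsilateral level above only that of rat 83, which had the lowest. The fitted log2 fold change between hemispheres was 1.81 with an SE of 0.275, and 1.85 with an SE of 0.274 when the rat entered the fit as a block (paired samples).

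In sham rats the differences were 0.40 (rat 82), −0.18 (rat 84), 0.31 (rat 86), −0.23 (rat 91) and −0.77 (rat 94), with Fgl2 higher ipsilaterally in 2 of 5 animals. The mean was −0.09 ± 0.47 (SD, n = 5), and the CPM ratios were between 0.587 and 1.32. Sham surgery on the right thus showed no common direction of asymmetry. The fitted log2 fold change in sham was −0.17 with an SE of 0.247. It was −0.09 with an SE of 0.190 in the fit with the rat as a block, and 0.06 without rat 94. The smallest difference in a PBBI rat, 0.89, was above the highest in a sham rat, 0.40, and the largest in the opposite direction was the −0.77 of sham rat 94. The 0.89 is that of rat 81, whose titles both carry PFC. The 0.40 is that of rat 82, whose contralateral title alone carries it, so the samples of that pair may differ in region. The excess of the ipsilateral over the contralateral effect of injury, the interaction of injury and hemisphere, had a log2 value of 1.96 with an SE of 0.367, and 1.93 with an SE of 0.355 with the block.

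**Figure D3:**
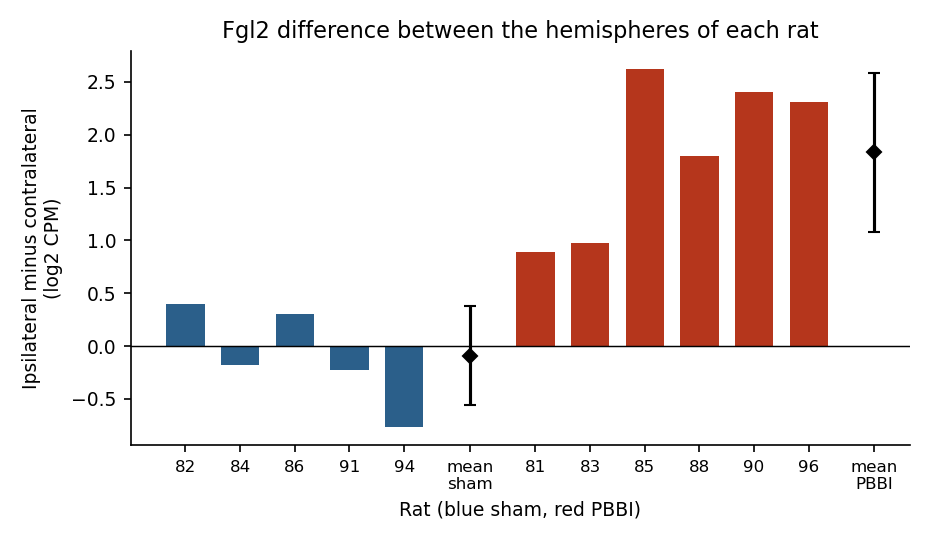
Ipsilateral minus contralateral log2 CPM of Fgl2 (vertical axis) for each rat, with sham rats in blue and PBBI rats in red. Bars are single rats and black diamonds the mean ± SD of the group; PBBI rats lie between 0.89 and 2.63 and sham rats between −0.77 and 0.40.

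No relation between the hemispheres was seen across rats. Over the 6 PBBI rats Pearson's r between the log2 CPM of the hemispheres was −0.21 (exact permutation p = 0.583) and Spearman's rho was −0.20 (exact permutation p = 0.714), which with Benjamini-Hochberg adjustment over the 2 coefficients gave 0.714 for both. Without rats 81 and 85, the farthest from the contralateral median, r was −0.17. Over 6 rats a relation of moderate size would not be detectable.

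The description of Fgl2 as the most consistent gene of the comparison of PBBI and sham in the injured hemisphere was set against all genes. It ranked 1 by p in edgeR, 4 in DESeq2 and 3 in limma voom, with Mcm5 and Mki67, both genes of dividing cells, next in edgeR. It also ranked 1 when all 22 samples shared a fit, in which the pairing of samples within rats was not modelled. When each rat was left out in turn, Fgl2 stayed past the threshold in 11 of 11 fits, as 268 genes in all did, and it ranked 1 in 6 of the fits and no lower than 5, its place without PBBI rat 85. Its difference of group means was 7.97 times the pooled SD, again rank 1, ahead of Mcm5 at 7.84. The small spread of the ipsilateral sham samples described above enters this measure. By other measures Fgl2 was not at the top. It ranked 281 by log2 fold change, and 32 by the gap of 1.72 log2 units between its lowest PBBI and highest sham sample, where Ccl7, a monocyte chemokine, led with 4.40. Ccl7 also had a log2 fold change of 7.57 (SE 0.770) against the 2.68 of Fgl2. Fgl2 thus led where the difference was set against the spread between rats, and not by the size of its change, where it ranked 281 of 16104. In the ipsilateral PBBI samples its own SD was not small, since 45.3% of genes of like level had a smaller one. All of these measures come from the comparison that chose it.

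The ipsilateral fold change depended little on how it was computed. It was between 2.62 and 2.80 in the 11 fits without 1 rat, 2.66 without rat 85, and between 2.58 and 2.72 in the 7 fits with another normalization, filter or tool. Scaling mattered more for rat 85 itself, whose ipsilateral level was 59.5 CPM with TMM and 42.0 CPM from total counts alone. On total counts the ipsilateral PBBI samples were between 32.7 and 80.6 CPM and the ipsilateral sham samples between 7.81 and 9.27, still without overlap.

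Genes that followed Fgl2 most closely were sought among 16586 others over the 22 samples, which share libraries and a common difference between groups, so the coefficients are descriptions only. The highest Pearson correlations of log2 CPM among named genes were those of Hspb1, a small heat shock protein (r = 0.97), Tagln2, an actin-binding protein (0.97), Socs3, a feedback inhibitor of cytokine signalling (0.97), Csrp3, a LIM-domain protein of muscle (0.96), and Timp1, an inhibitor of metalloproteinases (0.96). In all, 96 genes had r above 0.9, and the median over all genes was −0.08. Csrp3 was at very low levels, with a mean of 1.29 CPM in ipsilateral PBBI and at most 0.0777 CPM in the other groups. By Spearman's rho, 2 of these 5, Hspb1 and Socs3, stayed among the top 5. These genes are higher in the injured hemisphere, with log2 fold changes of 6.77 for Hspb1, 2.50 for Tagln2, 5.32 for Socs3 and 5.37 for Timp1, so the difference between groups enters their likeness to Fgl2.

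After each group's mean was subtracted, what remained was the variation among rats of a group. The closest named genes were then AC125248.1 (r = 0.87), Hspb1 (0.84), Glipr2 (0.83), Tagln2 (0.83) and Trim47 (0.82), and by Spearman's rho AC125248.1, Hspb1 and Glipr2 stayed among the top 5. The median r over all genes was −0.02. AC125248.1 was near the floor in sham, with means of 0.0817 CPM ipsilaterally and 0.0978 contralaterally. Hspb1 and Tagln2 were thus close to Fgl2 both across and within groups. Hspb1 was lowest of the ipsilateral PBBI samples in rat 83, with 35.0 CPM against 178 to 656 in the other 5, as Fgl2 was. It was highest of the contralateral PBBI samples in rat 81, with 98.7 CPM, followed by rat 88 with 36.8 CPM, while the other 4 had 2.18 to 8.58. Contralaterally the order of rats 81 and 88 at the top was that of Fgl2. Hspb1 was picked for its likeness to Fgl2 over these same samples, so this agreement in single rats is not separate evidence.

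**Figure D4:**
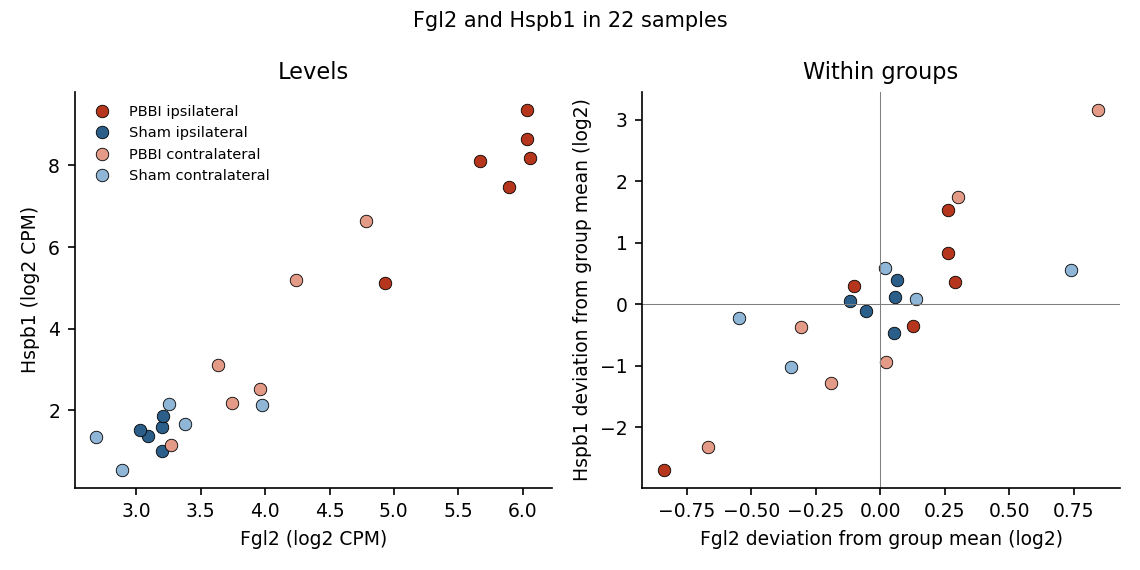
Hspb1 against Fgl2 in 22 samples, as log2 CPM (left) and as deviations from the group mean on the log2 scale (right). Points are samples coloured by group; the correlation is 0.97 for the levels and 0.84 for the deviations.

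Genes related to Fgl2 by pathway, protein domain or immune setting were described by lists written from general knowledge, with earlier results of these data known. Most are not known partners of Fgl2. Of 52 listed genes other than Fgl2 that could be paired with an identifier, 49 were tested ipsilaterally and 33 rose, none fell. The names come from a list that mostly holds genes the study itself called on these samples. These counts, and the medians of the lists below, are therefore not independent evidence of a direction. Ipsilaterally the background is the 4.09% of genes called higher given above, and over all genes the median log2 fold change was −0.02. Contralaterally, 0 of 47 listed genes were called by edgeR against 0% of all genes, and DESeq2 called 1, Kng1l1, a kininogen gene. Without rat 85, 38 of 48 listed genes rose ipsilaterally and 1, Vtn, fell, in a fit that called 8.52% of all genes higher and 5.16% lower.

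Coagulation genes lie downstream of the prothrombinase activity of Fgl2 protein or beside it. Of 30 listed, 15 could be paired with an identifier. Of 14 tested, 9 rose ipsilaterally and none fell, with a median log2 fold change of 1.65. Without rat 85, 10 of 13 tested rose and none fell, with a median of 1.43. F2, prothrombin, the substrate of Fgl2, was at low levels, 1.27 ± 0.647 CPM in PBBI (SD, n = 6) and 0.267 ± 0.192 in sham (n = 5), and did not pass the test (edgeR adjusted p = 0.0689). F3, tissue factor, the usual starter of coagulation, rose from 28.2 ± 4.71 to 47.7 ± 6.96 CPM, a log2 fold change of 0.76. Thbd, thrombomodulin, and Procr, the protein C receptor, both of which turn thrombin towards anticoagulation, rose by 1.64 and 2.58 on the log2 scale. Tfpi2, a protease inhibitor, rose by 2.86, and Vwf, von Willebrand factor of endothelium and platelets, by 1.24. Kng1l1 rose from 0.0505 ± 0.0415 CPM in sham to 4.47 ± 3.67 in PBBI. F7, coagulation factor VII, had 0 counts in the 5 ipsilateral sham samples and in 1 PBBI sample, and its PBBI mean of 2.20 CPM was at least 27.4-fold higher than 3 counts in a sham library. The median of 1.65 over all rats is the same with F7 at that bound.

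Fibrinolysis genes govern the removal of fibrin, and 7 of the 12 listed could be paired with an identifier. Of 7 tested, 6 rose ipsilaterally and none fell, with a median log2 fold change of 3.15. Vtn, vitronectin, was the exception, with −1.08 (edgeR adjusted p = 0.0999). Serpinb2, an inhibitor of plasminogen activators, rose by 4.10 on the log2 scale, Plau, the urokinase activator, by 3.67, and its receptor Plaur by 3.15.

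Among other genes with a fibrinogen-like domain, 3 of 5 rose ipsilaterally and none fell, with a median of 2.23. Tnc, tenascin-C of the extracellular matrix, rose by 2.43, Angptl4 by 2.23 and Angpt2, an angiopoietin of endothelium, by 2.14 on the log2 scale. Angptl2 had a log2 fold change of 2.01 and Fcnb, a ficolin, of 3.39, and neither passed the test (edgeR adjusted p = 0.0765 and 0.103). Without rat 85 all 5 passed. Only 6 of the 22 family genes listed, Fgl2 included, could be paired with an identifier.

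The receptors of soluble Fgl2 were described with the other Fc receptor genes. Of 5 listed, 4 could be paired with an identifier. Ipsilaterally 4 of 4 rose, with a median log2 fold change of 2.19, or 2.03 without rat 85. Fcgr2b, the inhibitory receptor, rose from 5.99 ± 2.15 to 40.4 ± 20.2 CPM, a log2 fold change of 2.75, beside the 2.68 of Fgl2. Fcgr3a rose from 5.28 ± 4.29 to 25.3 ± 10.9 CPM, a log2 fold change of 2.26, and Fcgr1a and the common chain Fcer1g rose by 2.12 and 1.41 on the log2 scale. Contralaterally Fcgr2b had a log2 fold change of 0.61 and Fcgr3a of 1.00, beside the 0.71 of Fgl2, and none was called.

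Interferon-gamma response genes include direct targets of the cytokine that induces Fgl2 in macrophages. Of 28 listed, 12 could be paired with an identifier. Of 12 tested, 7 rose ipsilaterally and none fell, with a median of 1.25. Icam1, an adhesion molecule, rose by 1.87, Gbp2, an interferon-induced GTPase, by 1.72, Ifi30 by 1.50 and Irf1, the transcription factor that relays the signal, by 1.12 on the log2 scale. Socs1 had a log2 fold change of 1.47 and did not pass the test (edgeR adjusted p = 0.120). Of 16 listed genes of regulatory T cells and immune suppression, 9 could be paired with an identifier. Of 7 tested, 4 rose and none fell, with a median of 1.98. Without rat 85, 6 of 7 rose and none fell, with a median of 2.17. Lilrb4, an inhibitory receptor of myeloid cells, rose by 3.96, Il1rn, the antagonist of the IL1 receptor, by 3.34 and Tgfb1 by 1.98. Izumo1r, a marker of regulatory T cells, had 2.14 and did not pass (edgeR adjusted p = 0.0932).

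**Figure D5:**
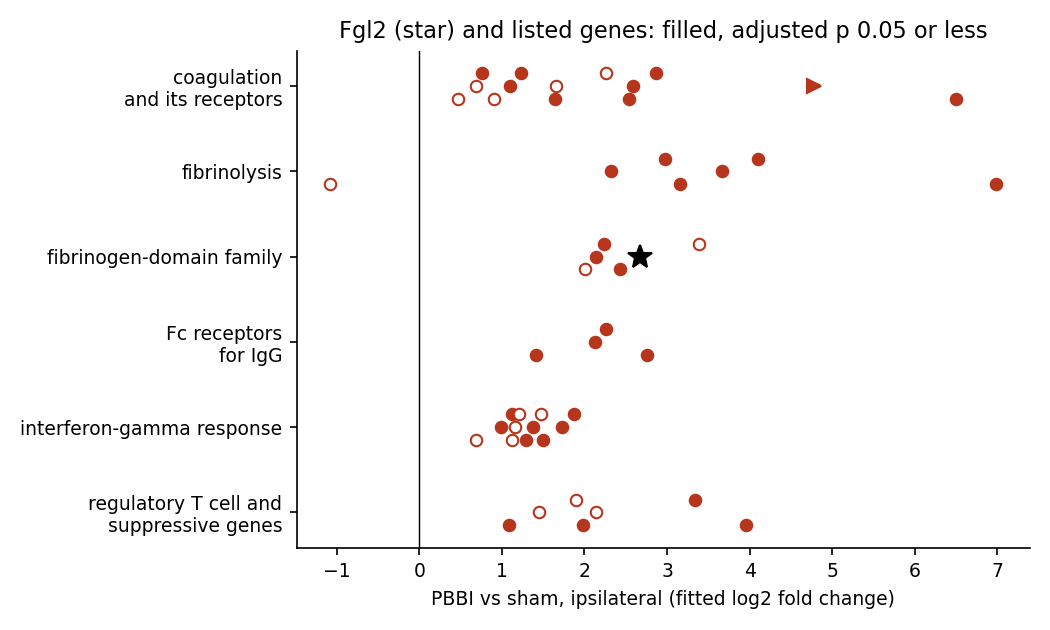
Fitted ipsilateral log2 fold change, PBBI against sham, of the listed genes tested (horizontal axis), by list. Filled circles are genes at an edgeR adjusted p of 0.05 or less, open circles the others, the star is Fgl2 at 2.68, and the triangle is F7 drawn at its lower bound; the filled genes all lie to the right of 0.

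Marker genes of the cells known to express Fgl2 moved with it in part. Markers were named from the same list as above, which mostly holds genes the study called on these samples. The sums and counts of markers, in either hemisphere, are therefore not independent evidence of a direction. Ipsilaterally edgeR called 4.09% of all genes higher and 0.584% lower, or 8.52% and 5.16% without rat 85. The summed level of 11 macrophage and microglia markers, of 22 listed, was 387 to 903 CPM in the ipsilateral PBBI samples against 127 to 259 in ipsilateral sham, without overlap, and 8 of the 11 rose. Ptprc (CD45), found on leukocytes, rose by 1.97 and Itgam (CD11b) by 2.58 on the log2 scale, while Cd163, of perivascular macrophages, had a log2 fold change of 1.29 and did not pass the test (edgeR adjusted p = 0.0834). Tmem119, a marker of resting microglia, had −0.92 and did not pass either (edgeR adjusted p = 0.0799), but fell in the fit without rat 85. It was chosen for naming after its value was seen.

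T cell markers, 6 of 10 listed, summed to 3.70 to 13.8 CPM against 0.618 to 2.73, also without overlap and at low levels, and 2 of 5 tested rose, or 4 of 5 without rat 85. The 2 that rose were Cd8a, by 3.31 on the log2 scale, and Il2rb, by 2.39. The defining marker Cd3d was between 0.0573 and 1.13 CPM in PBBI and too low to be tested. Neutrophil markers, 6 of 11 listed, summed to 20.2 to 252 CPM against 9.75 to 54.6, with overlap, and 1 of 5 tested rose, or 3 of 5 without rat 85. Endothelial markers, 4 of 12 listed, had no common direction. Their sum was 60.7 to 141 CPM in ipsilateral PBBI and 99.1 to 159 in ipsilateral sham, with 2 of 4 risen, Vwf among them.

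Markers of the other cell types of the cortex were also summed. Astrocyte markers, 5 of 9 listed, summed to 2516 to 7431 CPM against 1407 to 2421, a sum led by Gfap, with 1 of 5 risen and 2 fallen, or 3 fallen without rat 85. Neuron markers, 6 of 14 listed, summed to 753 to 1705 CPM against 1666 to 2413, with overlap, and 1 of 6 fell, or 4 of 6 without rat 85. The 2 of 8 oligodendrocyte markers summed to 466 to 1176 CPM against 307 to 754, with overlap. Neither passed in edgeR, and DESeq2 called 1 lower. Rat 83, lowest in Fgl2 of the ipsilateral PBBI samples, was also lowest there for the macrophage sum (387 CPM), the neutrophil sum (20.2 CPM) and the T cell sum (3.70 CPM), and highest for the neuron sum (1705 CPM) and the endothelial sum (141 CPM against 60.7 to 84.4 in the other 5). With TMM scaling, rat 85 had the highest macrophage sum (903 CPM) while its Fgl2 level was below that of 3 of the 6. Its TMM factor was low, 0.706, and a low factor raises all scaled levels of a sample. From total counts alone its Fgl2 level was 42.0 CPM, above only that of rat 83 at 32.7 CPM. Macrophage sums from total counts were not compared, so whether rat 85 would still be highest is not known. The part of these cell types in the Fgl2 difference was not tested.

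In the RefSeq annotation of the later assembly GRCr8, Fgl2 lies within the span of another gene, Ccdc146. The sources used here do not say whether strand was used in counting. Reads from Ccdc146 and from Fgl2 can therefore not be told apart with certainty, and Ccdc146 could not be paired with an identifier in the count table.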

How the data were processed

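RNA from the cortex of both hemispheres of 6 PBBI and 5 sham rats was sequenced (22 samples), and the labels gave each sample its injury, hemisphere and rat. Per the labels, reads were aligned with STAR 2.4.2a to Rnor 6.0 and counted with featureCounts 1.4.3-p1. The authors deposited raw counts per gene, not normalized, for 32545 Ensembl identifiers. How strand and multiply aligned reads were handled is not given in the sources used here. Names were paired with 1818 identifiers through gene lists of the study.

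Within each hemisphere PBBI and sham were compared by the quasi-likelihood test of edgeR 4.0.16 (R 4.3.3, limma 3.58.1) on TMM-scaled libraries filtered by filterByExpr, and p-values were adjusted by Benjamini-Hochberg, with calls at 0.05 or less. Hemispheres were compared within PBBI and within sham, and the interaction was fitted over 22 samples. CPM are TMM-scaled, and log2 CPM used a prior count of 2. Single comparisons used two-sided exact permutation tests (SciPy 1.17.1). The fits were tested on simulated data.

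Fgl2 and the gene lists were chosen with earlier results of these data known. For lists other than those of cell type markers, genes named are every paired member where there are 6 or fewer. Otherwise they are the 4 with the largest ipsilateral change among those tested. Also named are the 5 named genes most like Fgl2 by each measure, and a fixed set of 13 coagulation, receptor and marker genes. Most other markers entered only the sums and counts. Genes named outside this rule (such as Ccl7, Mcm5, Mki67, Vtn, Kng1l1 contralaterally, Tmem119, Cd8a and Il2rb) were chosen after their values were seen. A gene that the rule names is not reported here.

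Samples with the same animal number are the hemispheres of 1 rat. Their deviations from the group means correlated with r between 0.246 and 0.758 in all 11 rats, so the rat was also fitted as a block. Correlations of samples within a group were between 0.800 and 0.983, and 0 pairs were identical. Alternatives were the size factors of DESeq2 in edgeR, all genes with counts, a minimum of 10 counts per sample, DESeq2 1.42.0 with and without its prior, limma voom with quality weights, all 22 samples in a single fit, Spearman's rho, a prior count of 0.5 and leaving out each rat. The single fit of all 22 samples for PBBI against sham had no term for the rat. CPM from total counts without TMM, and the prior count of 0.5 in the permutation test, were added after seeing the data. The week of surgery, a possible batch, was not used here. Coordinates and sequences were not used here.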

Additional observations from a re-analysis of the deposited data

Results flagged for a closer look

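Of the 10 sets of Fgl2 values screened for a sample far from the others (CPM and log2 CPM in 4 groups, and the paired differences in PBBI and in sham), 1 held such a sample. It was the ipsilateral sample of PBBI rat 83, at 4.93 log2 CPM (30.5 CPM) against 5.67 to 6.06 in the other 5 rats. On the linear CPM scale the same sample did not stand apart by this measure. Chance gives about 1 such sample in 20 groups. Rat 83 had 63412426 total counts, the highest depth of the 22 samples, so low depth does not accompany its low value. Without it, the ipsilateral log2 fold change of Fgl2 was 2.80 with an SE of 0.172, against 2.68 with an SE of 0.229.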

How the results depend on the processing

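The ipsilateral log2 fold change of Fgl2 kept its direction and stayed within the spread between rats in 18 of 18 alternatives, between 2.58 and 2.80, the within-PBBI difference in 12 of 12 (1.68 to 2.06 with 1 rat left out) and the interaction in 17 of 17 (1.75 to 2.21 with 1 rat left out). Within sham the direction turned in 1 of 11, to 0.058 without sham rat 94, over a range of −0.27 to 0.058 with 1 rat left out. With the rat as replicate block (paired samples) the values were 1.85 within PBBI, −0.09 within sham and 1.93 for the interaction, and no direction changed. The contralateral log2 fold change stayed positive and did not pass the adjusted threshold in 18 of 18 alternatives, between 0.42 and 0.95 (0.49 to 0.95 with 1 rat left out). In the contralateral exact permutation test the difference in mean log2 CPM was 0.70, and between 0.53 and 0.88 with 1 rat left out, where p was under 0.05 in 2 of 11. In exact permutation tests it was 0.76 (p = 0.0563) on CPM without TMM and 0.70 (p = 0.0519) with a prior count of 0.5. Pearson's r of the hemispheres over PBBI rats stayed negative, between −0.58 and −0.14, with 1 rat left out, while Spearman's rho was 0.20 without rat 81. Counts over all genes moved far more than Fgl2. The ipsilateral fit called 753 genes with edgeR, 1639 with DESeq2, 5014 with voom, 1655 with all 22 samples in the fit, and between 316 and 2186 with 1 rat left out. The block called 1646 genes against 568 within PBBI, and 708 against 54 for the interaction. The rank of Fgl2 by p was 4 with DESeq2 and 3 with voom. Of the 5 genes most like Fgl2, 2 stayed with Spearman's rho over 22 samples and 3 after group means were subtracted. Of the listed genes, DESeq2 called 44 ipsilaterally and 1 contralaterally, against 33 and 0. The cause of these shifts was not tested.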
